A study of Homo sapiens with 6 samples.

Results

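The collagen genes were studied in cells given a hairpin RNA against HERVH, a family of retroviral sequences in the human genome that pluripotent cells transcribe at high levels. Members were taken by name alone: every probe whose gene name had the form COL, a type number, A and a chain number. This gave 43 genes on 70 probes, of 31334 gene names on the 47230 probes of the array. H1 cells, an established line of human embryonic stem cells, were used at passage 32 without feeder cells on Matrigel, a basement membrane extract. The 3 HERVH shRNA samples received the plasmid pSUPER-HERVH, which expresses a short hairpin RNA (shRNA) against HERVH. The 3 control shRNA samples received pSUPER-Luciferase, whose hairpin targets luciferase. The labels name 1 construct per group. All 6 samples shared the line, the passage, 2 µg of plasmid and RNA extraction 5 days after transfection. The labels name no selection of transfected cells, and they do not say whether replicates were separate cultures, so p-values measure only the spread between these samples, which may be technical.

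Collagens are secreted or membrane-bound proteins built from chains that wind into a helix of repeated glycine triplets. Fibrillar collagens pack into the banded fibrils of skin, tendon, bone and cartilage. Type IV collagens form the sheet-like network of basement membranes, the matrix that stem cell colonies and epithelia rest on. The other types coat fibrils, anchor basement membranes to the tissue beneath, or span the cell surface.

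RNA was hybridised to 1-colour Illumina arrays, and the values are signals (intensities) on a linear scale as deposited. The median signal of an array was 73.5 to 73.8 with HERVH shRNA and 71.2 to 71.6 with control shRNA. A probe was called when limma's moderated test on log2 signal gave a Benjamini-Hochberg adjusted p under 0.05 over all 47230 probes. By that rule 11974 probes (25.4%) were called, 6120 of them higher (13.0%) and 5854 lower (12.4%) with HERVH shRNA. The median log2 difference over all probes was 0.05. No gene name held HERVH, so the depletion itself was not checked here. Of 13 markers of pluripotent stem cells, counted by 1 probe per gene, none had a mean signal below the median of all probes. With HERVH shRNA 8 were lower (61.5%, against 13.3% of all gene names) and 2 were higher (15.4%, against 15.4%). The higher ones were UTF1 (log2 difference 1.41, adjusted p = 1.09e-11) and PODXL (0.53, adjusted p = 1.96e-05). POU5F1, a core pluripotency factor, had signals of 1422, 1353 and 1393 with HERVH shRNA, against 3202, 2722 and 2853 with control shRNA, and a dimmer second probe had a log2 difference of -0.13 (adjusted p = 0.318).

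Collagen RNA was more often higher than lower with HERVH shRNA. Of the 70 collagen probes, 25 were called higher (35.7%, against 13.0% of all probes) and 7 lower (10%, against 12.4%), so that 45.7% were called in either direction, against 25.4%. With 1 probe per gene, the brightest on average, 19 of 43 collagen genes were higher (44.2%, against 15.4% of all gene names) and 4 were lower (9.3%, against 13.3%). The median log2 difference was 0.18 over the 43 genes and 0.05 over all gene names treated alike. Calls were more frequent among bright probes. Above the median signal, 51.2% of 41 collagen probes were higher and 17.1% lower, against 21.3% and 23.7% of all such probes. That cut uses the mean of both groups, so a rise helps a probe to pass it. Large changes went one way among the collagens: 14 probes were called higher with a log2 difference of at least 1 (20%, against 1.14% of all probes), and 0 were called lower by as much, against 1.44% of all probes. In bulk RNA, a change in the number of cells that make a collagen and a change in its RNA per cell cannot be told apart.

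**Figure D1:**
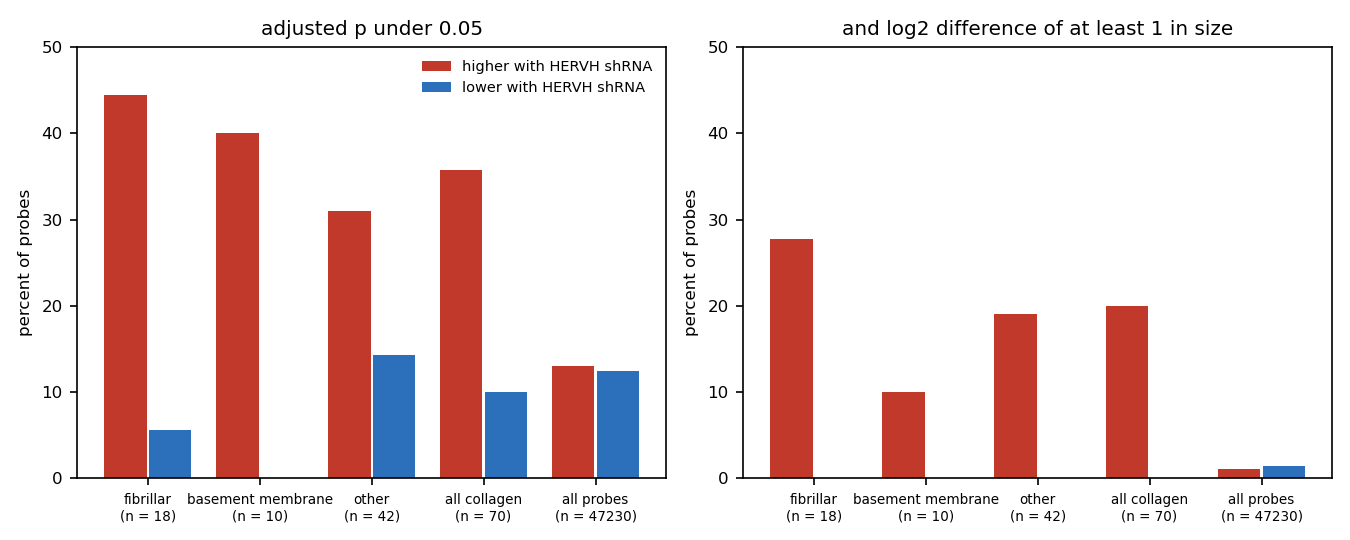
Percent of probes called higher (red) or lower (blue) with HERVH shRNA relative to control shRNA, for each collagen class, all 70 collagen probes and all 47230 probes. The left panel uses an adjusted p under 0.05 and the right panel adds a log2 difference of at least 1 in size, where 20% of collagen probes and 1.14% of all probes were higher.

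**Figure D2:**
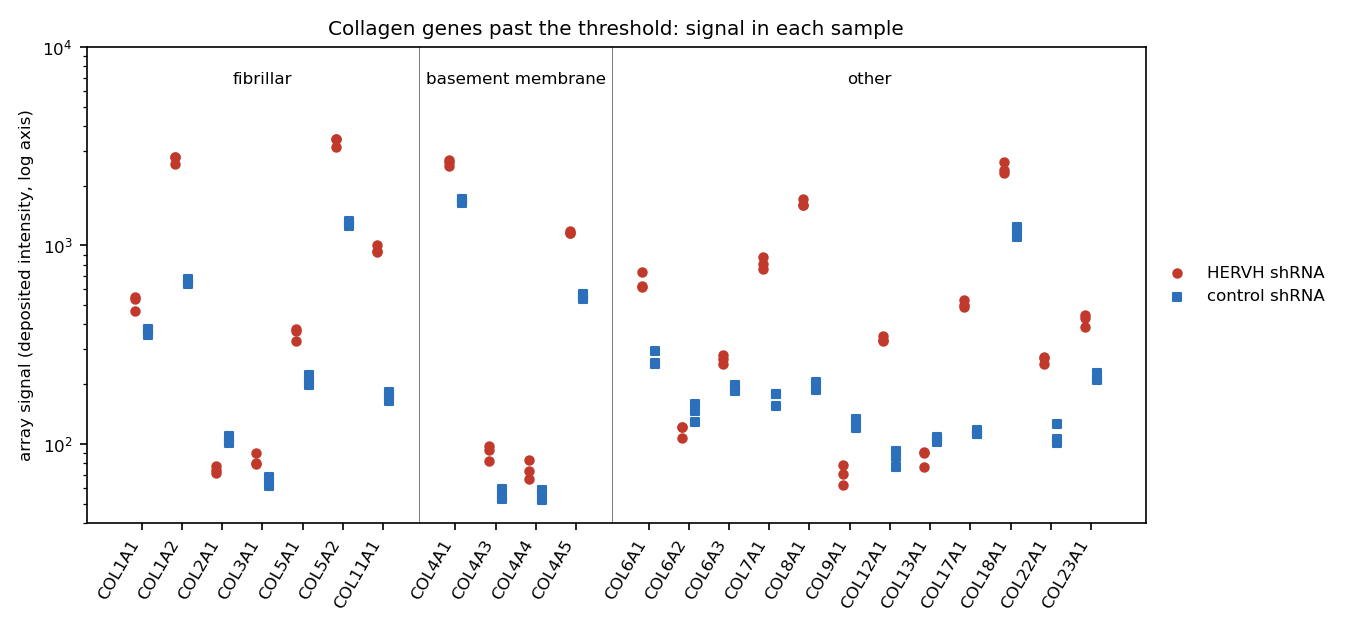
Array signal on a log axis in each of the 3 HERVH shRNA samples (red circles) and 3 control shRNA samples (blue squares), for the 23 collagen genes called by their brightest probe. The genes were chosen by their calls on these same samples, a choice that favours groups without overlap, as seen in each of them. COL2A1, COL6A2, COL9A1 and COL13A1 lay lower with HERVH shRNA.

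Among the fibrillar collagens, 6 of 11 genes were higher (54.5%, against 15.4% of all gene names) and 1 was lower (9.09%, against 13.3%). COL1A2, a chain of type I collagen, the main fibril protein of skin and bone, had signals of 2777, 2586 and 2802 with HERVH shRNA, against 678, 643 and 653 with control shRNA. This was a 4.14-fold rise, a log2 difference of 2.05 ± 0.08 (SE, adjusted p = 1.73e-14). A second COL1A2 probe rose by 1.41 ± 0.08 (SE, adjusted p = 7.89e-12). COL1A1, the other chain of type I collagen, had a smaller log2 difference, with signals of 465, 539 and 552 with HERVH shRNA, against 354, 374 and 378 with control shRNA, and a log2 difference of 0.49 ± 0.09 (SE, adjusted p = 0.000105). No sample of COL1A1 crossed between the groups, but the step was 1.4-fold.

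Type V collagen, which joins type I fibrils and limits their width, rose in its main chains. COL5A2 had signals of 3458, 3455 and 3129 with HERVH shRNA, against 1264, 1259 and 1329.9 with control shRNA, a log2 difference of 1.38 ± 0.08 (SE, adjusted p = 1.13e-11). COL5A1 had 381, 331 and 371 with HERVH shRNA, against 199, 209 and 222 with control shRNA, a log2 difference of 0.78 ± 0.08 (SE, adjusted p = 1.62e-07). The groups stood clear of each other for both chains. COL5A3, a less widely used chain, had mean signals of 67.6 ± 1.46 with HERVH shRNA and 71.5 ± 3.38 with control shRNA (SD, n = 3 each), and its groups overlapped (log2 difference -0.08, 95% confidence interval -0.25 to 0.09).

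COL11A1, a chain of the minor fibrillar collagen found with type II collagen in cartilage, changed most in this class. Its brightest probe had signals of 925, 1006 and 939.8 with HERVH shRNA, against 183, 164 and 174 with control shRNA, a 5.52-fold rise with a log2 difference of 2.46 ± 0.08 (SE, adjusted p = 1.37e-15). Of its other 3 probes, 1 rose by 1.04 on the log2 scale, and the other two, both dim, had differences of -0.10 and 0.08 that were not called. COL2A1, the chain of the cartilage fibril itself, went the other way on 1 of 2 probes. Its signals were 77.2, 73.5 and 70.9 with HERVH shRNA, against 101, 110.2 and 102 with control shRNA, a log2 difference of -0.50 ± 0.08 (SE, adjusted p = 4.08e-05), and on the second probe the difference was -0.00 (adjusted p = 0.99). COL3A1, a fibril chain of vessels and soft connective tissue, had signals of 79.0, 80.2 and 90.5 with HERVH shRNA, against 68.2, 65.4 and 61.2 with control shRNA, all close to the array median, and a log2 difference of 0.36 ± 0.08 (SE, adjusted p = 0.00233). The remaining fibrillar genes COL11A2, COL24A1 and COL27A1 were not called on any probe. Among the alternatives run, COL24A1 was called without control shRNA replicate 2 (log2 difference 0.26, adjusted p = 0.0454).

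**Figure D3:**
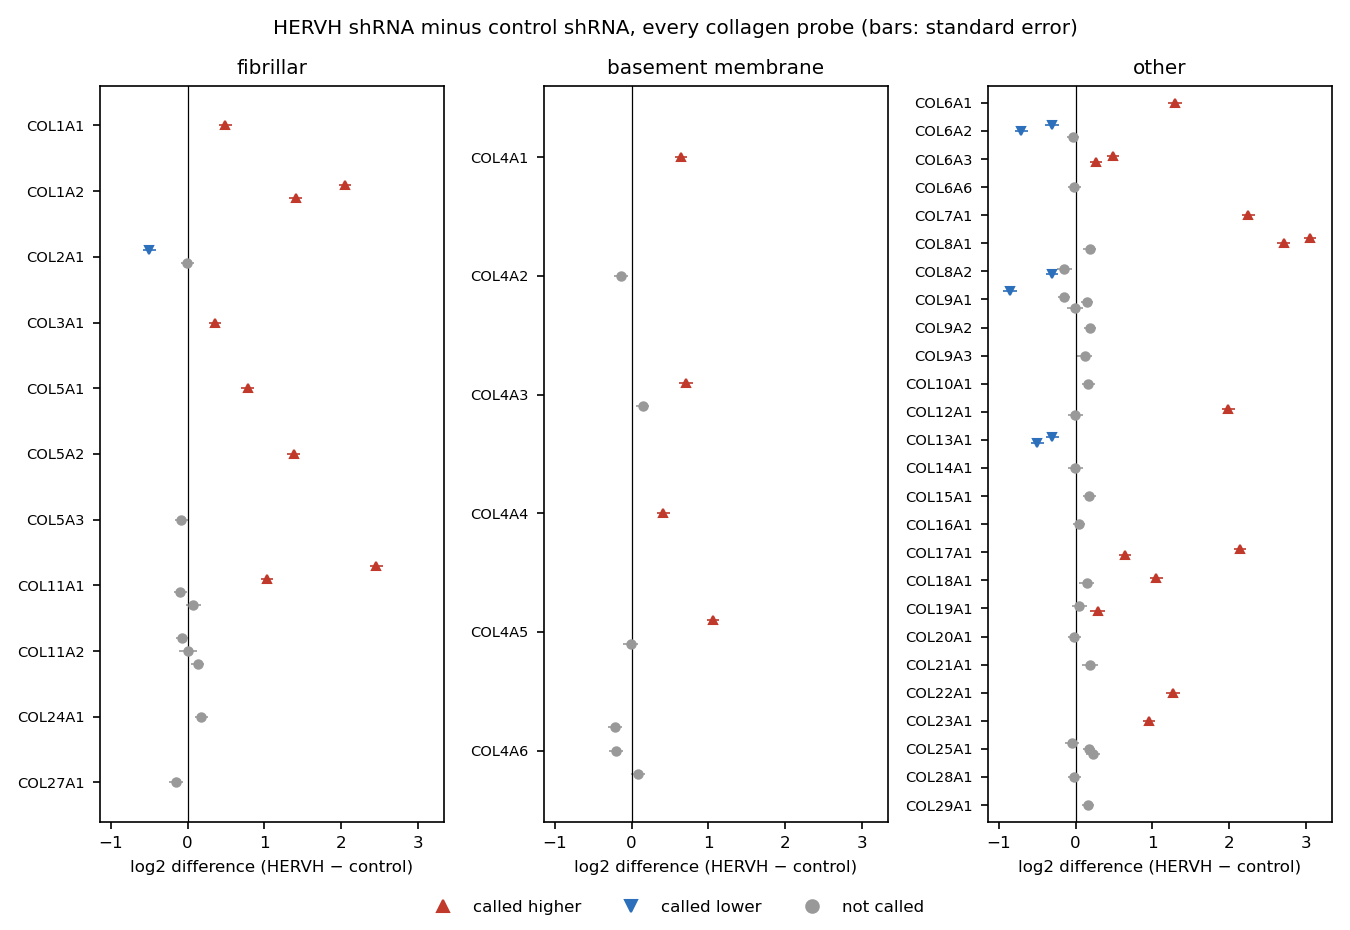
Log2 difference, HERVH shRNA minus control shRNA, for all 70 collagen probes by gene and class, with standard errors as bars. Upward red triangles mark probes called higher, downward blue triangles probes called lower and grey circles probes not called; the 2 bright probes of COL8A1 lie farthest right, at 3.06 and 2.71.

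The 6 type IV collagen genes lie in the genome as pairs that face away from each other across a short stretch of DNA, COL4A1 with COL4A2, COL4A3 with COL4A4 and COL4A5 with COL4A6. Their promoter windows from RefSeq (build GRCh38.p14), running from 250 bases before the start of a gene to 50 bases into it, are shown because the paired genes did not all move together. Capitals mark the stretch that lies in both windows of a pair, read on opposite strands. For COL4A6, which has several listed starts, the window that overlaps that of COL4A5 is shown. The windows lie at chr13:110307108-110307407 on the minus strand (COL4A1), chr13:110307034-110307333 on the plus strand (COL4A2), chr2:227164374-227164673 on the plus strand (COL4A3), chr2:227164156-227164455 on the minus strand (COL4A4), chrX:108439588-108439887 on the plus strand (COL4A5) and chrX:108439409-108439708 on the minus strand (COL4A6).
COL4A1: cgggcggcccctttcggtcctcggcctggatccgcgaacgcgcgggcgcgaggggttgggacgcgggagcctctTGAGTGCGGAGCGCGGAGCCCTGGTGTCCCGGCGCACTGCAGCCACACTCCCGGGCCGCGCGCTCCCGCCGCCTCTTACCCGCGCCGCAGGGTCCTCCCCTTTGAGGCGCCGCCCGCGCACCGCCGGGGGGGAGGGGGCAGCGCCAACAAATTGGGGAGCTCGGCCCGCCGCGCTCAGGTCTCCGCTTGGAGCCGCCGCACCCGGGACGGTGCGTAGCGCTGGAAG
COL4A2: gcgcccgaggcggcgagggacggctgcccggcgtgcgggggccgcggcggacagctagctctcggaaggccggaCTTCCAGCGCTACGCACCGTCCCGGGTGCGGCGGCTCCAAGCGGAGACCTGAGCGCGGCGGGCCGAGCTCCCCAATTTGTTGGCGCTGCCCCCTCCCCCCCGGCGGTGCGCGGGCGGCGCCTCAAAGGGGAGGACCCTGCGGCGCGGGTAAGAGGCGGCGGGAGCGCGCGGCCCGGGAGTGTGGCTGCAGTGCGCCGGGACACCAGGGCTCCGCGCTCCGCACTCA
COL4A3: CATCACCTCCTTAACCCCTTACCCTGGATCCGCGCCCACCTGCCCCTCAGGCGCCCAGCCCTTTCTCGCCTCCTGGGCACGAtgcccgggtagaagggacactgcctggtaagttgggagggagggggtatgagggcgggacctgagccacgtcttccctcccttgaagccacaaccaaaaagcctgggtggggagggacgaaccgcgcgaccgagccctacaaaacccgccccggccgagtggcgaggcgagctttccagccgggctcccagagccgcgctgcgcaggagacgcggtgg
COL4A4: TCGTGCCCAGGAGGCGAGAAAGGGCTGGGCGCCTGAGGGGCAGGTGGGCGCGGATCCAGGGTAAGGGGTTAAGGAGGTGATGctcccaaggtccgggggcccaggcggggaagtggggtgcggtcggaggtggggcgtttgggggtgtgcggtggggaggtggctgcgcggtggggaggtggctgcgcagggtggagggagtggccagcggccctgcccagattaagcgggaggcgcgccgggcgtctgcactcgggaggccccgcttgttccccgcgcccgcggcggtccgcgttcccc
COL4A5: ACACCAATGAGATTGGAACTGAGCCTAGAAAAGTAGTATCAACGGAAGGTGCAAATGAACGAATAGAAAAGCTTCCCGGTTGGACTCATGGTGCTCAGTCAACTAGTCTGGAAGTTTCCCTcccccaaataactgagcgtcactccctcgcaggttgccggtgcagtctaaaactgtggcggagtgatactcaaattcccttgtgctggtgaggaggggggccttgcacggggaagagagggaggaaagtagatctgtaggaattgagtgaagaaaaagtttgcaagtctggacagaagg
COL4A6: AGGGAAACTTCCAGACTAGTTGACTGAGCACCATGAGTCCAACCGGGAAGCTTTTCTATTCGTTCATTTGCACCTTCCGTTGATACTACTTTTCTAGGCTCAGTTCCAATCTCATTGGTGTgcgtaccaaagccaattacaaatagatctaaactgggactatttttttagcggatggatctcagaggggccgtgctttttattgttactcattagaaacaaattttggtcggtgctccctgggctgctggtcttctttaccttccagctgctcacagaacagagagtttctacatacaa

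The shared stretch was 226 bases for COL4A1 and COL4A2, whose starts were 127 bases apart, 82 bases for COL4A3 and COL4A4 (419 bases apart) and 121 bases for COL4A5 and COL4A6 (380 bases apart). The windows differed in base composition, with 76.7% and 77.7% G or C for COL4A1 and COL4A2, 67.7% and 74.0% for COL4A3 and COL4A4, and 49.3% and 43.7% for COL4A5 and COL4A6. The letters CCAAT, searched on both strands, occurred 1 time in the stretch shared by COL4A1 and COL4A2, 2 times in that of COL4A5 and COL4A6 and 0 times in that of COL4A3 and COL4A4. Of all 34943 promoter windows of 300 bases, 34.6% held CCAAT, and the full windows of COL4A3 and COL4A4 held 0. The GC box GGGCGG, on either strand, was found in the full windows of COL4A1 (2 times), COL4A2 (1 time) and COL4A3 (2 times) and in none of the other 3, and 44.9% of all windows held it. The shared stretch of COL4A1 and COL4A2 held 1 of these GC boxes, and the other shared stretches held 0. A promoter window was listed for 31 of the 43 collagen genes.

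Of these 6 genes, 4 were higher with HERVH shRNA (66.7%, against 15.4% of all gene names), 2 were not called and 0 were lower in limma at the adjusted threshold (1 was lower at an unadjusted p under 0.05, COL4A6). COL4A1, a chain of nearly all basement membranes, had signals of 2525, 2696 and 2641 with HERVH shRNA, against 1635, 1709 and 1691 with control shRNA. The groups did not overlap, and the log2 difference was 0.64 ± 0.08 (SE, adjusted p = 1.02e-06). COL4A2, which shares the longest stretch of promoter with it, had 153, 167 and 154 with HERVH shRNA, against 157, 192 and 173 with control shRNA. Those ranges overlapped (log2 difference -0.14, 95% confidence interval -0.32 to 0.04, adjusted p = 0.296).

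COL4A5, a chain of kidney, lung and skin basement membranes, had signals of 1182, 1157 and 1150.0 with HERVH shRNA, against 569, 539 and 559 with control shRNA, the largest step in the class with a log2 difference of 1.07 ± 0.08 (SE, adjusted p = 4.23e-10). Its dimmer probe did not follow (log2 difference -0.01, 95% confidence interval -0.21 to 0.19). COL4A6, its neighbour, had 132, 107 and 103 with HERVH shRNA, against 131, 128 and 136 with control shRNA on its brightest probe and was not called (log2 difference -0.22, 95% confidence interval -0.41 to -0.03, adjusted p = 0.0946). Without HERVH shRNA replicate 1, the highest of its group, that probe was called lower (log2 difference -0.33, adjusted p = 0.00972), and so was a second COL4A6 probe (log2 difference -0.28, adjusted p = 0.0463). On all 6 samples that second probe had a difference of -0.20 and was not called. COL4A3 and COL4A4, chains of the kidney filter, had mean signals over all 6 samples below the median of all probes. COL4A3 had 92.7, 82.3 and 97.2 with HERVH shRNA, against 52.5, 59.0 and 54.8 with control shRNA (log2 difference 0.71 ± 0.09 SE, adjusted p = 9.07e-07), and COL4A4 had 73.0, 82.8 and 66.8 with HERVH shRNA, against 55.9, 58.2 and 52.3 with control shRNA (log2 difference 0.42 ± 0.09 SE, adjusted p = 0.000919). For this pair both genes were called higher, but a second COL4A3 probe was not (log2 difference 0.14, 95% confidence interval -0.04 to 0.33).

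Partner chains were also compared as the ratio of their signals within each array, set to the mean of that ratio in the control shRNA samples. For COL4A1 over COL4A2 the log2 ratio was 0.74 to 0.83 above the control mean in the HERVH shRNA samples, and lay from -0.12 to 0.11 around it in the control shRNA samples. For COL4A5 over COL4A6 it was 1.09 to 1.41 above, against -0.04 to 0.04 in control shRNA samples. For COL4A3 over COL4A4 the groups overlapped, from -0.01 to 0.54 with HERVH shRNA and from -0.09 to 0.07 with control shRNA. The same ratio for COL1A2 over COL1A1 was 1.43 to 1.74 above the control mean, against -0.05 to 0.10 in control shRNA samples. An exact two-sided permutation test over 3 against 3 samples cannot go below p = 0.1, the value reached by 5 of the 6 pairs examined (0.12 after Benjamini-Hochberg adjustment), and COL4A3 over COL4A4 gave p = 0.3. The ratios use the same values as the differences of each chain, so they add no separate support. Both pairs with COL6A2 share its brightest probe.

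**Figure D4:**
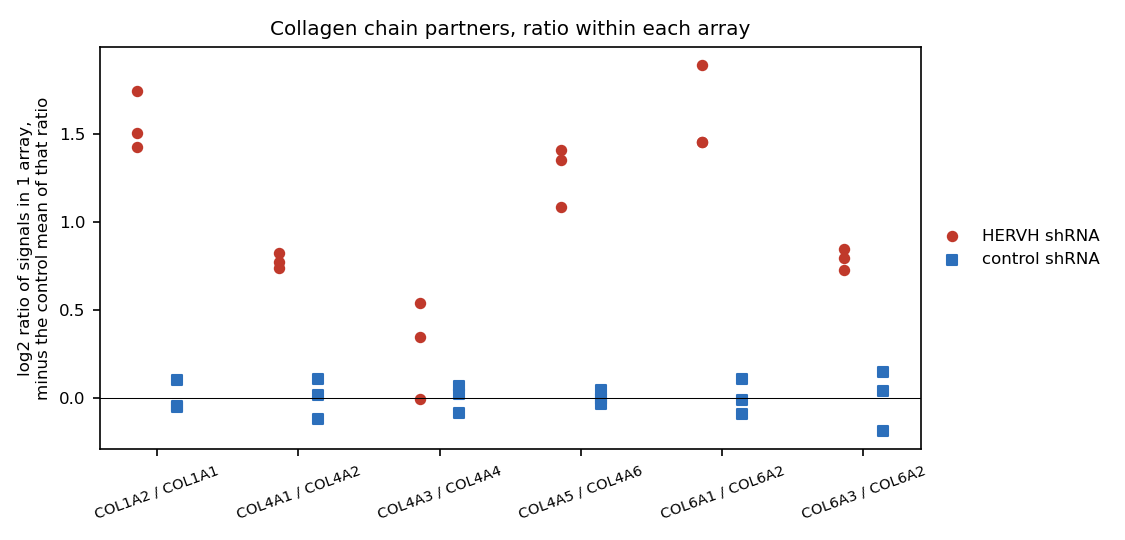
Log2 ratio of the signals of 2 collagen chains in each array, minus the mean of that ratio in the control shRNA samples, for 6 pairs of chains; red circles are HERVH shRNA samples and blue squares control shRNA samples. In each pair but COL4A3 over COL4A4, all 3 HERVH shRNA samples lie above all 3 control shRNA samples.

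Of the 26 other collagen genes, 9 were higher (34.6%, against 15.4% of all gene names), 7 of them with a log2 difference of at least 1, and 3 were lower (11.5%, against 13.3%). COL8A1, a short-chain collagen that forms the hexagonal lattice beneath the corneal endothelium and is made by vessel walls, had the largest rise of any collagen. Its signals were 1722, 1599 and 1605 with HERVH shRNA, against 187, 199 and 205 with control shRNA, an 8.34-fold difference (log2 3.06 ± 0.08 SE, adjusted p = 4.84e-17). A second probe had 715, 712 and 719 with HERVH shRNA, against 118, 102 and 107 with control shRNA, a log2 difference of 2.71 ± 0.08 (SE, adjusted p = 3.76e-16). On its remaining, dim probe the difference was 0.18 (95% confidence interval 0.01 to 0.35). COL8A2, the partner chain, had 154, 131 and 122 with HERVH shRNA, against 156, 134 and 159.6 with control shRNA on its brighter probe, which overlapped (log2 difference -0.15, 95% confidence interval -0.35 to 0.05), while its dimmer probe was called lower (log2 difference -0.31 ± 0.08 SE, adjusted p = 0.00566). COL10A1, the related chain of growth plate cartilage, was not called (0.16).

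COL18A1, a basement membrane proteoglycan whose C-terminal fragment is endostatin, had signals of 2328, 2396 and 2638 with HERVH shRNA, against 1108, 1233 and 1209 with control shRNA. The log2 difference was 1.05 ± 0.08 (SE, adjusted p = 1.53e-09), and a second, dim probe gave 0.14 without a call. COL15A1, its closest relative, was dim and not called (0.18, 95% confidence interval -0.00 to 0.36).

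Membrane-spanning collagens split. COL17A1, a hemidesmosome protein that ties epithelial cells to their basement membrane, had signals of 501, 487 and 530.0 with HERVH shRNA, against 112, 113 and 118 with control shRNA. It rose 4.43-fold, by 2.15 ± 0.08 (SE, adjusted p = 7.84e-15) on the log2 scale, and its dimmer probe rose by 0.64 ± 0.08 (SE, adjusted p = 1.57e-06). COL23A1 had 446, 389 and 429 with HERVH shRNA, against 212, 228 and 211 with control shRNA, a log2 difference of 0.96 ± 0.08 (SE, adjusted p = 6.40e-09). COL13A1, found at cell junctions and at the neuromuscular synapse, was lower on both probes. The brighter had 90.9, 76.5 and 90.3 with HERVH shRNA, against 108, 102 and 107 with control shRNA (log2 difference -0.31 ± 0.09 SE, adjusted p = 0.00954), and the dimmer had a log2 difference of -0.50 ± 0.08 (SE, adjusted p = 6.76e-05). Without HERVH shRNA replicate 2 the brighter probe was no longer called (log2 difference -0.22, adjusted p = 0.0929). The 3 probes of COL25A1, a membrane collagen of neurons, were not called.

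COL7A1, which forms the anchoring fibrils that hold the basement membrane of skin to the dermis, had signals of 756, 807 and 878 with HERVH shRNA, against 155, 178 and 179 with control shRNA. This was a 4.77-fold rise, a log2 difference of 2.25 ± 0.09 (SE, adjusted p = 1.73e-14). Type VI collagen, a beaded filament near cell surfaces, was uneven. COL6A1 had 621, 620.2 and 735 with HERVH shRNA, against 292, 257 and 253 with control shRNA, a log2 difference of 1.30 ± 0.09 (SE, adjusted p = 1.71e-10). COL6A3 had 268, 279 and 254 with HERVH shRNA, against 185, 189 and 198 with control shRNA, a smaller rise of 0.49 ± 0.08 (SE, adjusted p = 5.11e-05). A second COL6A3 probe rose by 0.26 ± 0.08 (SE, adjusted p = 0.0146), a call that was lost without HERVH shRNA replicate 1 (log2 difference 0.24, adjusted p = 0.0547).

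COL6A2, another chain of the same filament, was lower on 2 of 3 probes. One had 62.0, 68.3 and 65.3 with HERVH shRNA, against 104, 108 and 107 with control shRNA, a log2 difference of -0.71 ± 0.08 (SE, adjusted p = 3.04e-07). The brightest had 122, 122 and 107 with HERVH shRNA, against 159.5, 129 and 146 with control shRNA, a log2 difference of -0.30 ± 0.09 (SE, adjusted p = 0.0158). That call was lost without control shRNA replicate 1 (-0.23, adjusted p = 0.0972), without control shRNA replicate 3 (-0.29, adjusted p = 0.0506), without HERVH shRNA replicate 3 (-0.24, adjusted p = 0.0926) and with a floor of 50 on the signals (-0.30, adjusted p = 0.083). The third probe had a log2 difference of -0.03. Within arrays, the log2 ratio of COL6A1 to the brightest COL6A2 probe was 1.46 to 1.89 above the control mean with HERVH shRNA, against -0.09 to 0.11 with control shRNA. That of COL6A3 to COL6A2 was 0.73 to 0.85 above it, against -0.19 to 0.15. COL6A6, COL28A1 and COL29A1, the array's name for the gene now called COL6A5, were dim and not called.

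Among the collagens that decorate fibrils (the FACIT group), 2 of 10 genes were higher (20%) and 1 was lower (10%) by their brightest probe, close to the 15.4% and 13.3% of all gene names. COL12A1, which coats type I fibrils in tendon and skin, had signals of 348, 332 and 331 with HERVH shRNA, against 76.9, 92.2 and 86.0 with control shRNA, a 3.97-fold rise (log2 1.99 ± 0.08 SE, adjusted p = 7.35e-14). Its other probe, near the median signal, gave -0.01 (95% confidence interval -0.21 to 0.19). COL22A1, a collagen of tissue junctions such as that of muscle and tendon, had 272, 275 and 251 with HERVH shRNA, against 127, 101 and 106 with control shRNA, a log2 difference of 1.27 ± 0.09 (SE, adjusted p = 2.93e-10).

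Type IX collagen covers type II fibrils in cartilage, and 1 of its genes was lower. COL9A1 had signals of 77.9, 70.3 and 61.8 with HERVH shRNA, against 133, 120.2 and 125 with control shRNA on 1 of 4 probes, a log2 difference of -0.86 ± 0.09 (SE, adjusted p = 1.17e-07), the largest decrease of any collagen probe. On its other 3 probes the differences ran from -0.15 to 0.15 and were not called, though with a floor of 50 the 2 probes at these ends were called (adjusted p = 0.0449 and 0.0297). COL9A2 had mean signals of 71.8 ± 2.79 with HERVH shRNA and 62.9 ± 3.12 with control shRNA (log2 difference 0.19, 95% confidence interval 0.02 to 0.36), and COL9A3 had 79.0 ± 10.1 with HERVH shRNA and 72.6 ± 5.53 with control shRNA (SD, n = 3 each; log2 difference 0.12, 95% confidence interval -0.08 to 0.31). The groups stood apart for COL9A2 and overlapped for COL9A3, and neither passed the threshold, with adjusted p-values of 0.0948 and 0.431. COL19A1 was called higher only on its dimmer probe, with signals of 75.0, 55.4 and 56.0 with HERVH shRNA, against 49.1, 50.5 and 51.5 with control shRNA. That log2 difference of 0.29 ± 0.10 (SE, adjusted p = 0.0372) was 0.15 without HERVH shRNA replicate 1, the highest sample (adjusted p = 0.283). The call was also lost without control shRNA replicate 1 (adjusted p = 0.0974), control shRNA replicate 2 (0.0681) or control shRNA replicate 3 (0.0657). COL14A1, COL16A1, COL20A1 and COL21A1 were not called, with log2 differences from -0.02 to 0.19.

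Over the family, 25 genes had at least 1 probe called and 18 had none. Of the 18 genes with several probes, 3 were higher on every probe (COL1A2, COL6A3 and COL17A1) and 1 was lower on every probe (COL13A1). For 7 genes some probes were higher and the rest not called, for 4 some were lower and the rest not called, and 3 had no probe called. No gene had probes called in opposite directions (0 of 18). These counts by gene were not made for all gene names, so how common such agreement between probes is was not assessed. Which transcripts the single probes match was not examined. Of the 29 collagen probes whose mean over all 6 samples lay below the median signal, 4 were called, those of COL4A3, COL4A4, COL17A1 and COL19A1. Among all 23615 probes below that median, 1336 were called. Whether a probe stood above the background of its array was not assessed.

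Collagen chains are modified and folded in the endoplasmic reticulum before secretion. Of 18 measured genes for hydroxylation, folding and glycosylation, 9 were higher (50%, against 15.4% of all gene names) and 1 was lower (5.56%, against 13.3%). With the replicate block 3 were lower, since MIA3 (adjusted p = 0.0416) and GLT25D2 (0.0487), secretion and glycosylation genes, gained calls. They were called lower in 7 and 6 of the 13 refits run as alternatives. Of the 9 higher genes, LEPREL2 and FKBP10 lost their calls in 3 and 2 of these refits. LEPREL1, a prolyl 3-hydroxylase, had signals of 1151, 1287 and 1429 with HERVH shRNA, against 466, 496 and 526 with control shRNA (log2 difference 1.37 ± 0.09 SE, adjusted p = 6.49e-11). PLOD2, which hydroxylates lysines used in crosslinks, had 5342, 5373 and 5259 with HERVH shRNA, against 2316, 2290.2 and 2404 with control shRNA (log2 difference 1.19 ± 0.08 SE, adjusted p = 7.07e-11). The prolyl 4-hydroxylase subunits P4HB and P4HA1, which stabilise the helix, had log2 differences of 0.62 (adjusted p = 4.33e-06) and 0.28 (adjusted p = 0.0197). The P4HA1 call was lost with a floor of 50 (adjusted p = 0.0578), and without control shRNA replicate 1 (0.0895), HERVH shRNA replicate 1 (0.0939) or control shRNA replicate 2 (0.0693). CRTAP, a partner of prolyl 3-hydroxylase, was lower on its brightest probe, with 227, 184 and 190.4 with HERVH shRNA, against 398, 365 and 382 with control shRNA (log2 difference -0.93 ± 0.09 SE, adjusted p = 2.67e-08). Dimmer CRTAP probes were not called (log2 differences -0.10 and 0.06). SERPINH1, the collagen chaperone HSP47, had 3217, 3099 and 3353 with HERVH shRNA, against 3139.8, 3354 and 3082 with control shRNA, which overlapped (log2 difference 0.01, 95% confidence interval -0.15 to 0.18). The median log2 difference of the list was 0.20.

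Of 17 genes for propeptide removal and crosslinking outside the cell, 6 were higher (35.3%, against 15.4%) and 2 lower (11.8%, against 13.3%). LOXL4, a lysyl oxidase, had signals of 138, 147 and 143 with HERVH shRNA, against 83.4, 68.7 and 84.5 with control shRNA (log2 difference 0.86 ± 0.09 SE, adjusted p = 8.61e-08). BMP1, the procollagen C-proteinase, rose by 0.78 (adjusted p = 8.30e-07) on the log2 scale by its brightest probe. Its dimmer probes were not called, with log2 differences from -0.07 to 0.19. LOX, the founding lysyl oxidase, was dim, with 80.2, 73.7 and 71.5 with HERVH shRNA, against 48.2, 39.8 and 47.7 with control shRNA (log2 difference 0.74 ± 0.09 SE, adjusted p = 9.01e-07). The lysyl oxidase LOXL3 (-0.83, adjusted p = 1.96e-08) and PCOLCE2, an enhancer of the C-proteinase (-0.72, adjusted p = 3.31e-07), were lower. The list had a median log2 difference of 0.07.

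Collagen receptors were higher in 5 of 11 genes (45.5%, against 15.4%) and lower in 0 by their brightest probe (6 higher and 0 lower at limma's unadjusted p under 0.05). DDR1, a receptor tyrosine kinase for collagen, had signals of 1233, 1288 and 1309 with HERVH shRNA, against 669, 638 and 703 with control shRNA (log2 difference 0.93 ± 0.08 SE, adjusted p = 5.48e-09). CD44 rose by 1.10 (adjusted p = 4.06e-10), ITGA2, the collagen-binding integrin subunit, by 0.85 (adjusted p = 2.92e-08) and DDR2 by 0.64 (adjusted p = 2.99e-06). Dimmer probes of DDR1 (log2 differences 0.03 and 0.06), CD44 (0.16 and 0.18) and DDR2 (0.10) were not called. The integrin subunit ITGB1 gave opposite answers: its brightest probe had a log2 difference of 0.36 (adjusted p = 0.00174), while other ITGB1 probes were lower, with log2 differences of -1.55 (adjusted p = 3.07e-12) and -1.22 (adjusted p = 1.00e-10).

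Of 17 partners of type IV collagen in basement membranes, 9 were higher (52.9%) and 4 lower (23.5%), against 15.4% and 13.3% of all gene names. Only 3 of the 17 lay below the median signal. Of all probes above that median, 21.3% were higher and 23.7% lower, so the share of lower partners was near that of bright probes. By their brightest probes, the calls of LAMA1 (lower, adjusted p = 0.0421) and LAMA2 (higher, 0.0176), laminin alpha chains, were lost in 7 and 4 of the 13 refits. Another LAMA1 probe was lower by more (log2 difference -0.82, adjusted p = 4.19e-08), and a further one was not called (0.11). A dimmer LAMA2 probe was not called (0.11). The proteoglycan AGRN had signals of 732, 894 and 980.4 with HERVH shRNA, against 401, 425 and 436 with control shRNA (log2 difference 1.04 ± 0.10 SE, adjusted p = 1.63e-08). The laminin chain LAMB2 rose by 0.99 (adjusted p = 2.01e-09). LAMC1, the most widely used laminin gamma chain, rose by 0.80 (adjusted p = 4.05e-08), and fibronectin, FN1, by 0.83 (adjusted p = 3.51e-08). LAMB1 was lower on its brightest probe (-0.32, adjusted p = 0.00482), and another LAMB1 probe was higher (log2 difference 0.39, adjusted p = 0.00198).

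Of 18 fibril partners, 2 were higher (11.1%) and 1 was lower (5.56%), below the 15.4% and 13.3% of all gene names. FBN2, a microfibril protein, had signals of 2279, 2211 and 2277 with HERVH shRNA, against 818, 776 and 825 with control shRNA (log2 difference 1.48 ± 0.08 SE, adjusted p = 2.27e-12). THBS1 rose by 0.96 (adjusted p = 7.19e-08), and THBS2, another thrombospondin, was lower (-1.13, adjusted p = 5.30e-10). The proteoglycans DCN, BGN, LUM and FMOD, which bind collagen fibrils, were not called by their brightest probes. Of 16 genes of collagen degradation, 8 were higher (50%, against 15.4%) and 2 were lower (12.5%, against 13.3%). One of the 8, the gelatinase MMP2 (adjusted p = 0.0442), lost its call in 9 of the 13 refits. MMP9, another gelatinase, had signals of 184, 195 and 172 with HERVH shRNA, against 403, 369 and 399.8 with control shRNA (log2 difference -1.09 ± 0.08 SE, adjusted p = 7.02e-10), and the protease inhibitor TIMP4 was also lower (-0.88, adjusted p = 1.92e-08). The inhibitors TIMP3 and TIMP1 rose by 0.73 (adjusted p = 3.55e-07) and 0.66 (adjusted p = 1.36e-06). In all 6 lists, members were counted by 1 probe per gene. Some genes named as higher, among them AGRN, PLOD2, P4HA1 and FN1, also had a dimmer probe that was not called.

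**Figure D5:**
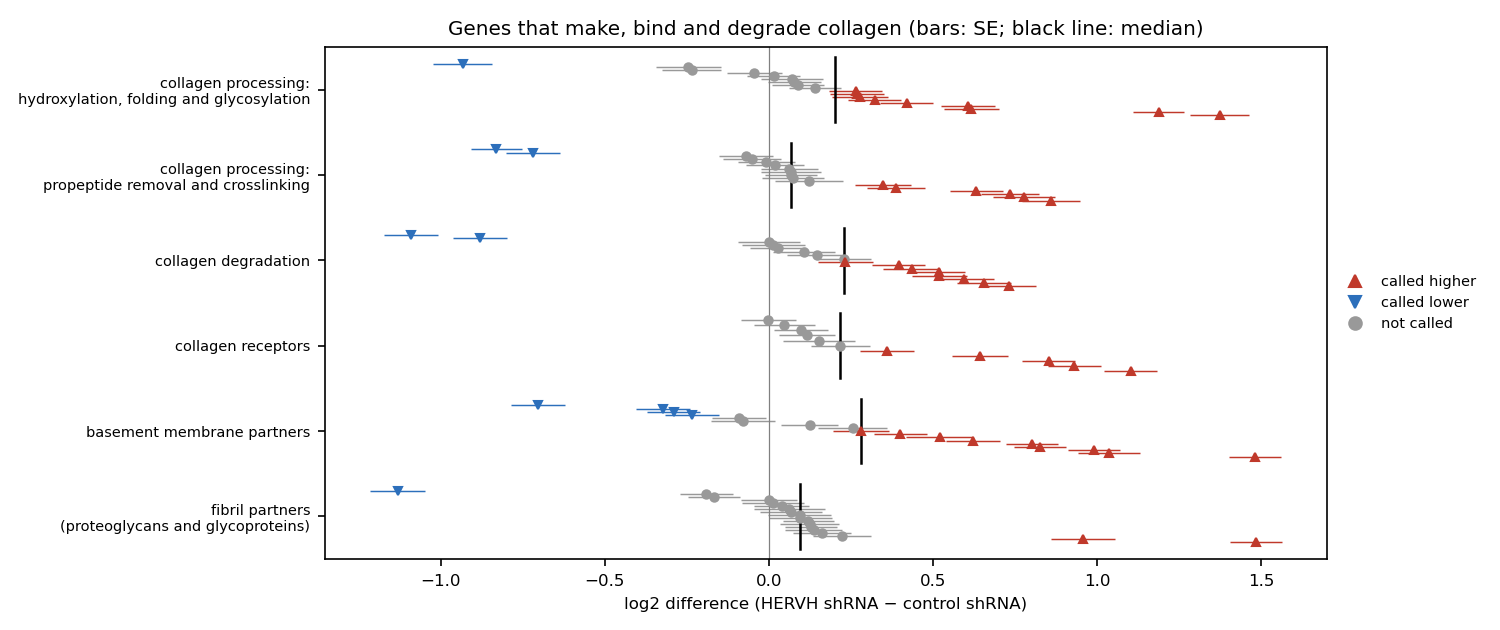
Log2 difference, HERVH shRNA minus control shRNA, for each measured gene of 6 lists around collagen, by its brightest probe, with the standard error as a bar. Red triangles mark genes called higher, blue triangles genes called lower and grey circles genes not called; the black line is the median of the list, 0.20 for hydroxylation and folding and 0.28 for basement membrane partners.

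Markers of other cell types moved beside the collagens, and their part in the collagen differences was not tested. Of 15 fibroblast and mesenchymal markers, 6 were higher (40%, against 15.4% of all gene names) and 1 lower (6.67%, against 13.3%). Their summed signal over 28 probes, most of it from TAGLN and VIM, was 48845 to 52781 with HERVH shRNA and 21141 to 21599 with control shRNA. TWIST1, a transcription factor of mesenchyme, had signals of 823, 769 and 804 with HERVH shRNA, against 103, 104 and 109 with control shRNA (log2 difference 2.92 ± 0.08 SE, adjusted p = 6.99e-17), and the smooth muscle genes ACTA2 and TAGLN rose by 2.48 (adjusted p = 1.52e-15) and 1.52 (adjusted p = 2.49e-12). VIM, the mesenchymal filament protein vimentin, rose by 1.33 (adjusted p = 1.30e-11) on its brightest probe and by 2.05 (adjusted p = 2.56e-14) on another. PDGFRA and PDGFRB rose by 0.33 (adjusted p = 0.00582) and 0.35 (adjusted p = 0.0052). The PDGFRB call was lost without HERVH shRNA replicate 2 (adjusted p = 0.0516). DCN, LUM, POSTN, THY1, FAP, PRRX1, TWIST2 and SNAI2 were not called by their brightest probes. A dimmer SNAI2 probe was higher (log2 difference 0.79, adjusted p = 5.83e-08). Of the 15 markers, 4 lay below the median signal, and S100A4 was lower (-1.26, adjusted p = 3.36e-11). Of 8 cartilage markers, 2 were higher (25%, against 15.4% of all gene names) and 1 was lower (12.5%, against 13.3%). HAPLN1 (0.93, adjusted p = 2.23e-08) and AGC1 (aggrecan, 0.25, adjusted p = 0.0354) were higher and SOX9 was lower (-0.49, adjusted p = 0.000149). The summed signal of the 8 markers was 1018 to 1066 with HERVH shRNA, against 926 to 974 with control shRNA. The AGC1 call was lost without HERVH shRNA replicate 1 (adjusted p = 0.151), HERVH shRNA replicate 3 (0.0936), control shRNA replicate 2 (0.0881) or control shRNA replicate 3 (0.15). It was lost in 7 of the 13 refits in all, at adjusted p from 0.077 to 0.172.

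Of 12 endoderm markers 4 were higher (33.3%, against 15.4% of all gene names) and 2 lower (16.7%, against 13.3%), of which SOX7 and EOMES lost their calls in 3 and 4 of the 13 refits, and the summed signal was 2358 to 2412 with HERVH shRNA, against 1386 to 1453 with control shRNA. AFP, a product of yolk sac and liver, had signals of 973, 1013 and 1076 with HERVH shRNA, against 168, 169.6 and 172 with control shRNA (log2 difference 2.59 ± 0.08 SE, adjusted p = 4.87e-16), and AFP made up most of the difference in the sum. CXCR4 (0.98, adjusted p = 1.15e-08) and CER1 (0.49, adjusted p = 6.73e-05) were also higher, and FOXA2 was lower (-0.49, adjusted p = 0.0001). Dimmer probes of CXCR4 and FOXA2 were not called. SOX17, GATA4, GATA6, TTR, APOA1 and HNF4A were not called by their brightest probes. Of 10 trophoblast markers 5 were higher (50%, against 15.4%) and 0 lower, also at limma's unadjusted p under 0.05 (summed signal 1336 to 1365, against 931 to 939), led by HAND1 (1.98, adjusted p = 4.78e-14). One of the 5, GATA3 (adjusted p = 0.0251), lost its call in 5 of the 13 refits. CDX2, CGA, CGB, GCM1 and VGLL1 were not called by their brightest probes, with log2 differences from 0.00 to 0.19. Of 8 neuroectoderm markers 3 were higher (37.5%, against 15.4%), and the summed signal, nearly all from NES and TUBB3, was 6931 to 7600 with HERVH shRNA, against 3027 to 3193 with control shRNA. TUBB3 rose by 1.45 (adjusted p = 5.50e-12) and NES by 1.34 (adjusted p = 1.85e-11), while the groups of MAP2 overlapped on its brightest probe and its call (adjusted p = 0.0433) was lost in 7 of the 13 refits. PAX6, SOX1, OTX1, ZIC1 and NEUROG2 were not called by their brightest probes, with log2 differences from 0.06 to 0.21. Of 8 mesoderm markers 0 were called by limma, and 2 had an unadjusted p under 0.05 (1060 to 1103, against 1001 to 1071). MEOX1 was called higher in 4 of the 13 refits and T in 1. Of 8 endothelial and blood markers 1 was higher and 1 lower (12.5% each, against 15.4% and 13.3%), with a summed signal of 1298 to 1368 with HERVH shRNA, against 1322 to 1396 with control shRNA. For the 13 pluripotency markers the sum was lower, 45529 to 48619 with HERVH shRNA, against 59065 to 63264 with control shRNA.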

How the data were processed

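The authors deposited a table of intensities on a linear scale, 1 column per sample. GenomeStudio made the signals, per the submitters' processing notes. For its version, the background correction and any normalization between arrays, nothing is given in the sources used here. The columns differed in distribution, so they are not quantile normalized. A second deposited table gave the gene name of each probe and was joined by probe identifier. Its 12 columns of signals and detection p-values carry names that match no sample label and were not used.

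Intensities were raised to a floor of 10, which 0 values lay below, and log2 transformed. A linear model of HERVH shRNA minus control shRNA (3 samples each) was fitted with limma 3.58.1 (lmFit and eBayes, R 4.3.3) to all 47230 probes, and p-values were adjusted by Benjamini-Hochberg over all of them. Ratios of partner chains were set to their mean in the control shRNA samples, and marker signals were summed over probes, whose levels are not on one scale. The 6 arrays limit the precision. Where a gene had several probes, the one with the highest mean over all samples stood for it. The fit was tested on simulated data. Named collagens were all probes with adjusted p under 0.05, the 3 brightest genes of each class, the 3 highest and 3 lowest differences, 7 fixed genes and partner chains. In each pathway list the 4 largest called differences and 8 fixed genes were named, and other genes named were chosen after their values were seen. One gene that this rule names is not reported here. Members and lists were chosen with earlier results of these data known. Alternatives were a replicate block, quantile normalization, a floor of 50, log2(value + 16), a filter on dim probes, a trended robust variance, samples left out 1 at a time, 1 probe per gene and, added after seeing the data, normexp background correction and a minimum log2 difference of 1.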

Additional observations from a re-analysis of the deposited data

How the results depend on the processing

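No collagen probe called in the analysis above changed direction under any of the 13 refits. The number of collagen probes called was 32 with the replicate block (25 higher, 7 lower), with quantile normalization, with a floor of 50, with log2(value + 16) and with a trended robust variance, 29 among probes above the median signal, 33 with normexp, and 30 to 32 with a sample left out. Of the 32 calls, 30 to 32 were shared in direction by each refit that tested all of them. With a log2 difference of at least 1 required, 14 collagen probes, 8 list genes and 1216 of all probes were called. The median log2 difference over collagen genes, 0.18, became 0.49 among genes above the median signal, where fewer genes are counted and, as that filter uses the mean of both groups, a rise helps a probe to pass, and 0.11 with normexp, for which the cause was not tested. COL19A1 lost its call also with quantile normalization (adjusted p = 0.0945), a floor of 50 (0.191) and normexp (0.129). COL4A6 gained one with the filter on dim probes (0.0416) and with normexp (0.0461 and, on a second probe, 0.0427), and on that second probe with quantile normalization (0.0431). The replicate block changed no collagen call. Same-numbered samples had correlated deviations of 0.10, -0.01 and 0.03, so the numbers were not read as pairs. The table with detection p-values could not be used for neqc, so whether dim probes stood above background was not assessed.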
